A study of Mus musculus with 28 samples.

Results

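Resting CD8 T cells of young mice were compared with resting CD4 T cells of mice of the same age, on 6 of the 28 arrays of the series. The 6 were chosen by the source labels, which name a young mouse, a cell type and time 0: 3 arrays held CD8 RNA and 3 held CD4 RNA. All 6 came from BALB/c mice of 4 months, and cells at 0 h had not been placed on the plates coated with antibodies to CD3 and CD28 that the later times used. The series as a whole also covers mice of 20 months and both ages at 4, 12, 24 and 72 h on those plates, with 3 arrays for each cell type and age at 0 h and 1 at each later time. RNA of 4 separate sortings was pooled for a time point, so an array describes a pool and not a mouse, and p-values measure the spread between arrays, part of which may be technical. The labels name the cells naive, but the sample titles and the growth protocol give a CD44hi gate while the descriptions give CD44lo. The titles pair CD44hi with CD62Llo. Which gate was sorted is not settled by the labels.

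CD8 and CD4 T cells arise from the same thymic precursors, which carry both coreceptors and then keep 1 of them. CD8 binds class I and CD4 binds class II molecules of the major histocompatibility complex, and the choice is tied to opposed transcription factors: Zbtb7b, also called ThPOK, in the CD4 lineage and Runx3 in the CD8 lineage. Mature CD8 cells are known for killing through granules and death ligands, while CD4 cells supply help, for example through CD40 ligand, and include the regulatory T cells that depend on Foxp3.

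The arrays were one-colour Agilent whole-genome mouse arrays, and levels are given as log2 of the signal relative to each array's own 75th percentile, so that 0 is the 75th percentile and 1 unit is a doubling. Levels of different genes come from different probes and are not compared with each other. Between 19662 and 28803 probes were well above background on the 6 arrays, the highest number being that of CD4 replicate 3, the only one of the 6 read on the older scanner and software version. CD8 replicates 2 and 3 shared a slide, CD4 replicates 1 and 2 shared another, and these 4 arrays were scanned on the same day, the only scan day with both cell types. Each slide held a single cell type, so slide and cell type cannot be told apart within a slide. The log2 difference between CD4 replicates 1 and 2 had a standard deviation of 0.501 over the genes tested. To replicate 3 it was 1.26 and 1.198. Between CD8 replicates 2 and 3 it was 0.802, and to CD8 replicate 1 it was 1.086 and 0.927. The main fit treats all arrays as independent, which those sharing a slide are not shown to be.

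CD4 replicates 1 and 2 stood apart from all other arrays of the series in genes of the sex chromosomes. Xist, the RNA that coats the inactive X chromosome, had levels of 3.83, 3.41 and 3.29 on the CD8 arrays and of -6.82, -5.94 and 3.40 on the CD4 arrays, and it was not above background on CD4 replicates 1 and 2. On the 26 arrays other than these 2 it ranged from 2.15 to 4.10 and was above background on all 26. Eif2s3y, a Y-linked gene, showed the opposite, with 2.16 and 2.35 on CD4 replicates 1 and 2 against at most -5.27 on the 26 others, where it was above background on none. Kdm5d, also on the Y chromosome, was called lower in CD8 cells at -4.77 ± 1.00 (SE, adjusted p = 0.028), with levels of -0.43, -0.32 and -4.54 on the CD4 arrays. Against CD4 replicate 3 alone the difference was -1.996 (adjusted p = 0.22), and the call was lost without CD4 replicate 1 or 2 or CD8 replicate 1, 2 or 3 (adjusted p = 0.06 to 0.12). The labels give no sex, and the part of this difference in other results was not tested. Of the genes called higher or lower that had a mapped probe, 3.94% and 5.07% lay on the X chromosome, beside 3.25% of all such genes. The comparison was therefore also made against CD4 replicate 3 alone, whose spread is then assumed to be that of the other groups, and calls of named genes that it did not keep are given beside them, as are those lost with the slide as a random block, which had an estimated correlation of 0.686 between arrays of a slide. Kdm5d was not called with that block either (adjusted p = 0.55).

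**Figure D1:**
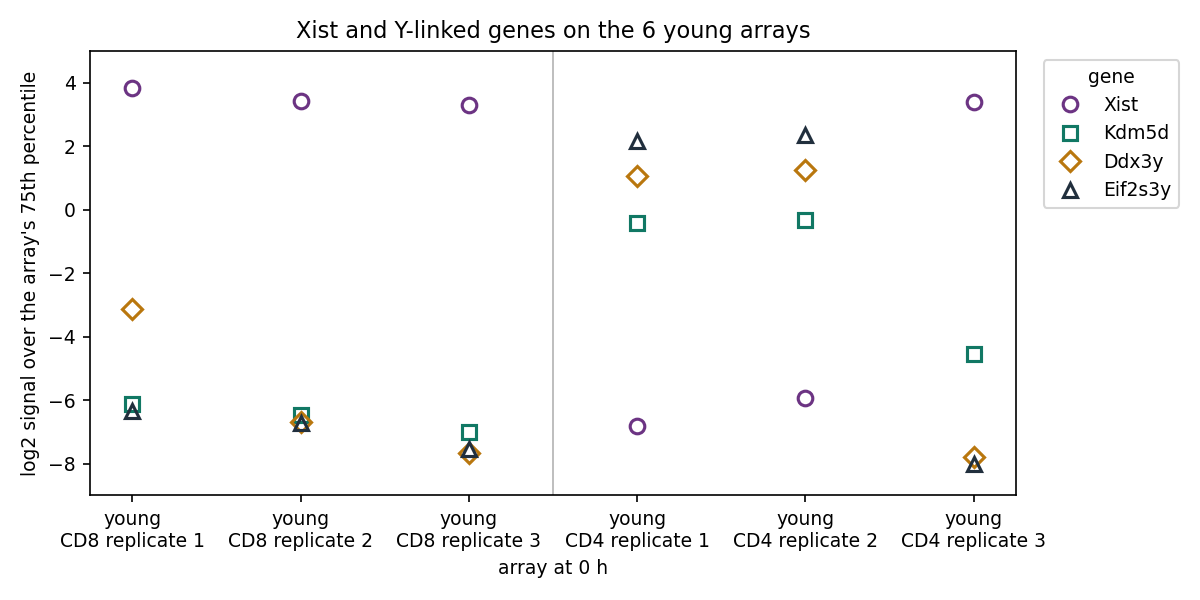
Levels of Xist and of the Y-linked genes Kdm5d, Ddx3y and Eif2s3y on each of the 6 young arrays at 0 h, as log2 signal relative to the array's 75th percentile; each symbol is 1 array. CD4 replicates 1 and 2 show Xist at -6.82 and -5.94 and Eif2s3y at 2.16 and 2.35, while the other 4 arrays show Xist at 3.29 or more.

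All 6 arrays carried the transcripts of mature T cells. None of the 12 tested T cell markers passed the limma test after adjustment, while 2 higher and 2 lower had an unadjusted p under 0.05, and their median difference was -0.08. Cd3e, a subunit of the T cell receptor complex, had levels of 2.06, 1.26 and 1.23 on the CD8 arrays and 1.07, 1.16 and 1.67 on the CD4 arrays, which overlapped. The arrays also overlapped for the naive T cell factors named here. Lef1 had levels of 6.92, 6.47 and 6.25 on the CD8 and 6.55, 6.47 and 6.78 on the CD4 arrays, and Tcf7, which encodes another factor of naive T cells, had 5.28, 5.13 and 5.19 on the CD8 arrays and 5.40, 5.47 and 4.85 on the CD4 arrays. Ccr7, the receptor for entry into lymph nodes, differed by -0.25 (adjusted p = 0.82). Cd44, the marker on which the labels disagree, had 2.37, 1.99 and 1.95 in CD8 and 2.29, 2.33 and 2.18 in CD4 cells, a difference of -0.16 (adjusted p = 0.77), and the arrays overlapped.

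Among 19397 genes tested, 737 differed between young CD8 and CD4 cells at an adjusted p below 0.05 (limma, Benjamini-Hochberg), which is 3.80% of those tested. Of these, 461 were higher in CD8 cells, 2.38% of all genes, and 276 were lower, 1.42%. Counts of list members below are to be read beside these shares. The difference exceeded 2 on the log2 scale for 167 of the higher and 95 of the lower genes, and 3 for 69 and 38. Over all genes tested, the 3 CD8 and 3 CD4 arrays did not overlap for 26.0%, of which 17.0% were higher and 8.98% lower in CD8 cells. Against CD4 replicate 3 alone, 178 genes were called, or 0.918%, with 120 higher (0.619%) and 58 lower (0.299%). Each of the 737 kept its sign there. However, CD4 replicate 3 and the same 3 CD8 arrays are part of the main comparison by which the 737 were picked. Signs and calls kept against that array, here and below, therefore give no independent support. Within the scan day that held both cell types, with 2 arrays a group, 6141 genes were called, or 31.7% (19.9% higher and 11.8% lower). Among them were 460 of the 461 and 271 of the 276. On that day each cell type lay on a single slide, so the spread is that within a slide, and slide and cell type cannot be told apart. Its young CD4 arrays are those without Xist, and all its arrays are also part of the main comparison. With the slide as a random block 223 were called, 148 higher and 75 lower. Left out singly, CD4 replicate 1 gave 408 calls, CD4 replicate 2 and CD8 replicate 2 gave 434 each, and CD8 replicate 3 gave 448, while CD8 replicate 1 gave 676 and CD4 replicate 3 gave 846.

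**Figure D2:**
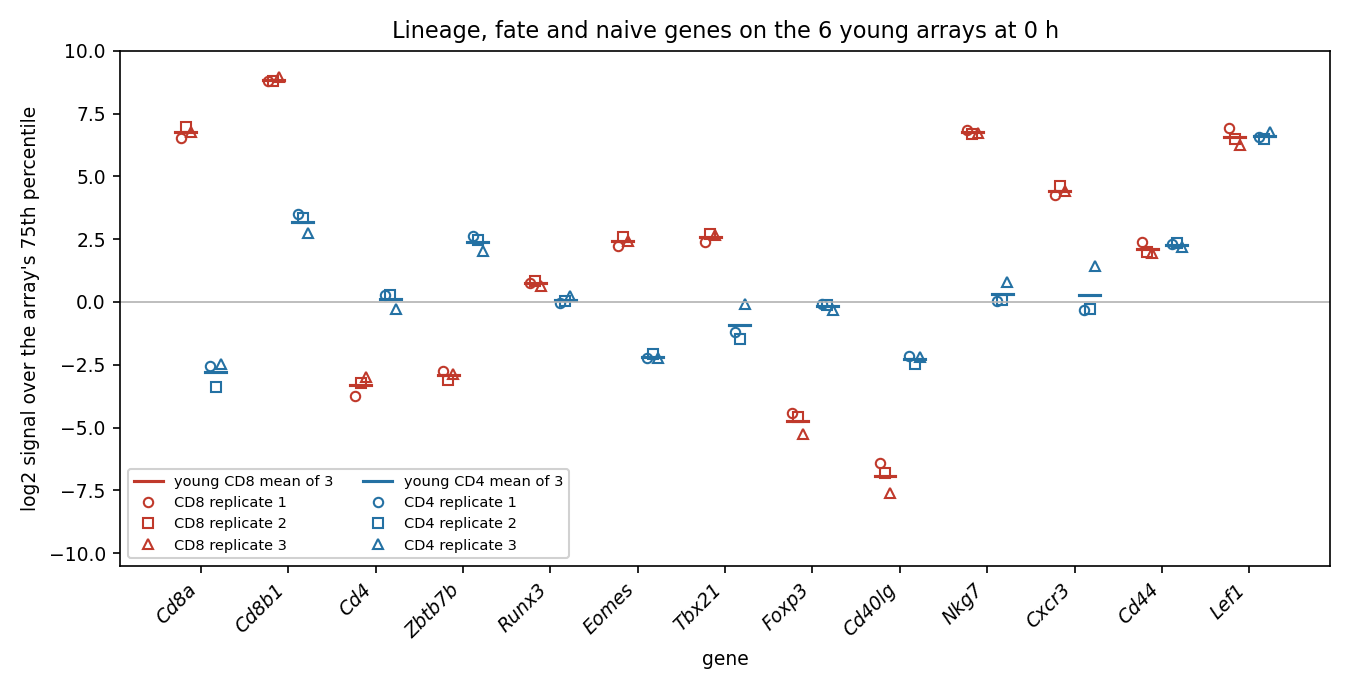
Levels of 13 genes on each of the 3 young CD8 (red) and 3 young CD4 (blue) arrays at 0 h, as log2 signal relative to the array's 75th percentile; symbols are arrays and bars are means of 3. Cd8a, Cd8b1, Eomes, Tbx21, Nkg7 and Cxcr3 lie higher on every CD8 array, Cd4, Zbtb7b, Foxp3 and Cd40lg lie lower, and the arrays of Cd44 and Lef1 overlap.

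The coreceptor genes separated the sorted cells as labelled. Cd8a, the alpha chain of CD8, had levels of 6.51, 6.97 and 6.76 on the CD8 arrays and -2.56, -3.37 and -2.47 on the CD4 arrays, and its difference of 9.55 ± 0.28 (SE, adjusted p = 3.2e-07), or 749-fold higher, had the smallest adjusted p of all genes. The probe lies on chromosome 6, 71395267 to 71395326 of the plus strand in the mm7 coordinates of the deposited files. Cd8b1, the beta chain, was measured at 8.78, 8.80 and 8.95 on the CD8 arrays and 3.51, 3.35 and 2.73 on the CD4 arrays, a difference of 5.64 ± 0.29 (SE, adjusted p = 7.8e-06). Both chains stayed called against CD4 replicate 3 alone, at 9.22 (adjusted p = 9.3e-05) and 6.11 (adjusted p = 0.00085). A further probe that the reference table names Cd8b1 maps to chromosome 5 rather than 6 and, fitted as a single probe, differed by -0.58 (adjusted p = 0.28).

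Cd4 went the other way, with -3.74, -3.21 and -2.97 on the CD8 arrays and 0.28, 0.29 and -0.27 on the CD4 arrays, a difference of -3.41 ± 0.36 (SE, adjusted p = 0.00063) or 10.6-fold lower. Its probe lies on chromosome 6, 124894079 to 124894138 of the minus strand. All CD4 arrays were higher than all CD8 arrays. Against CD4 replicate 3 alone the difference was -3.04 (adjusted p = 0.053), which just missed the threshold. In the fit of single probes another Cd4 probe differed by -6.17 (adjusted p = 0.00095).

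Of the regulators of the lineage choice, the CD4 factor differed and the CD8 factor did not pass the test. Zbtb7b had levels of -2.76, -3.09 and -2.87 in CD8 cells and 2.61, 2.48 and 2.05 in CD4 cells, a difference of -5.29 ± 0.23 (SE, adjusted p = 3.4e-06), or 39-fold lower, and its probe lies on chromosome 3, 89505972 to 89506031 of the minus strand. It stayed called against CD4 replicate 3 alone, at -4.96 (adjusted p = 0.001). Runx3 was measured at 0.76, 0.83 and 0.65 on the CD8 arrays and -0.04, 0.05 and 0.22 on the CD4 arrays. Its CD8 arrays all exceeded the CD4 arrays, but the difference of 0.67 ± 0.27 (SE, adjusted p = 0.26) missed the threshold, and another Runx3 probe differed by -0.16 (adjusted p = 0.91). Gata3, which acts upstream of Zbtb7b in thymocytes, had 3.37, 2.72 and 2.57 on the CD8 arrays and 3.20, 3.25 and 3.81 on the CD4 arrays, which overlapped, and Tox, needed for CD4 development, differed by 0.24 (adjusted p = 0.69).

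The CD8 lineage list, 20 genes tied to CD8 identity, had 15 members called higher (75%, beside 2.38% of all genes) and 0 lower. Its median difference was 3.27 beside 0.04 over all genes tested. Against CD4 replicate 3 alone 11 were higher and 0 lower. The CD4 lineage list of 20 had 0 called higher and 12 lower, with a median of -1.83, and 6 lower against CD4 replicate 3 alone. With the slide as a random block the counts were 14 higher for the CD8 list and 10 lower for the CD4 list. Leaving out any 1 young array gave between 14 and 16 higher for the first and between 11 and 12 lower for the second. The CD4 list had 60% called lower in the main fit, beside 1.42% of all genes. Members of these and the other lists were chosen with earlier results of these data known. The counts therefore describe the lists and give no independent support.

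Among transcription factors of effector fate, both T-box factors tested by name were called higher. Eomes, which drives memory and cytotoxic genes, had levels of 2.25, 2.60 and 2.44 in CD8 cells and -2.22, -2.09 and -2.22 in CD4 cells, a difference of 4.61 ± 0.57 (SE, adjusted p = 0.0015) or 24.4-fold higher. Tbx21, which encodes T-bet, had 2.38, 2.70 and 2.67 on the CD8 arrays and -1.20, -1.46 and -0.07 on the CD4 arrays, with CD4 replicate 3 above the other CD4 arrays, and differed by 3.49 ± 0.34 (SE, adjusted p = 0.00034). Against CD4 replicate 3 alone Tbx21 stayed called, at 2.65 (adjusted p = 0.01), while Eomes had 4.65 (adjusted p = 0.072). Runx2, a Runx-family factor, was measured on 2 of 3 CD4 arrays, with 0.35, 0.13 and 0.10 in CD8 and -4.03, -4.08 and -1.82 in CD4 cells, and differed by 3.51 (adjusted p = 0.0064), or 2.02 (adjusted p = 0.11) against replicate 3.

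Over all 56 tested transcription factors of T cell fate, 6 were called higher and 4 lower, with a median of 0.05, and 1 and 2 against CD4 replicate 3 alone. In the main fit 10.7% were higher and 7.14% lower, beside 2.38% and 1.42% of all genes. Myb differed by 1.97 (adjusted p = 0.011) and Egr2, an early growth response factor, by 0.96 (adjusted p = 0.01). Lower in CD8 cells, beside Zbtb7b and Foxp3, were Ikzf2, the Helios gene, at -2.19 (adjusted p = 0.042) and Prdm1, the Blimp-1 gene, at -1.20 (adjusted p = 0.044). These calls did not hold in every fit with 1 array left out. Myb lost its call without CD4 replicate 1 or 2 (adjusted p = 0.056 to 0.058), as did Egr2 (adjusted p = 0.054 to 0.06). Ikzf2 lost it without CD4 replicate 1, 2 or 3 or CD8 replicate 2 or 3 (adjusted p = 0.095 to 0.16). Prdm1 lost it without CD4 replicate 1 or 2 or CD8 replicate 1, 2 or 3 (adjusted p = 0.052 to 0.17). Such fits also have fewer arrays, and the part of that in lost calls was not tested. Ikzf4, another Ikaros-family gene, had a difference of -1.37 (adjusted p = 0.32) and was not called. Myb, Egr2, Ikzf2 and Prdm1 were not called against CD4 replicate 3 alone (adjusted p = 0.17 to 0.28) or with the slide as a random block (adjusted p = 0.081 to 0.26).

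Genes of regulatory T cells were lower in CD8 cells. Foxp3 had levels of -4.43, -4.57 and -5.24 on the CD8 arrays, where it was above background on 1, and -0.09, -0.14 and -0.32 on the CD4 arrays, where the 3 lay close together. The difference was -4.57 ± 0.36 (SE, adjusted p = 0.0001), and -4.43 (adjusted p = 0.014) against CD4 replicate 3 alone. In a bulk sample fewer Foxp3-expressing cells and less Foxp3 RNA per cell cannot be told apart, and the same holds for every gene described here. Il2ra, the high-affinity chain of the interleukin 2 receptor, was measured at -4.52, -4.91 and -5.17 on the CD8 arrays and -1.06, -1.40 and -1.13 on the CD4 arrays, and also above background on 1 of 3 CD8 arrays, with a difference of -3.67 ± 0.31 (SE, adjusted p = 0.00014). Gpr83, an orphan receptor of regulatory T cells, had -0.12, 0.33 and 0.24 on the CD8 arrays and 4.27, 3.96 and 3.58 on the CD4 arrays, and differed by -3.78 ± 0.24 (SE, adjusted p = 3.2e-05). Socs2, an inhibitor of cytokine signalling, differed by -3.93 (adjusted p = 1.8e-05).

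Of the 20 tested regulatory T cell genes, 12 were called lower and 0 higher, with a median of -2.03, and 6 were called lower against CD4 replicate 3 alone. In the main fit 60% were called lower, beside 1.42% of all genes. The levels of all 20 were added up, in multiples of the array's 75th percentile. The sums lay between 41.5 and 51.3 on the CD8 arrays and between 68.6 and 92.9 on the CD4 arrays. CD4 replicate 3 had the lowest of the latter. Ctla4, an inhibitory receptor of these cells, was measured on 1 of 3 CD8 arrays and differed by -2.35 (adjusted p = 0.019), or -3.34 (adjusted p = 0.032) against CD4 replicate 3; the first call was lost without CD8 replicate 2 or 3 (adjusted p = 0.081 to 0.083). Il1rl1, the receptor for interleukin 33, had CD4 levels of -2.78, -2.87 and 0.11, so that replicate 3 was far above replicates 1 and 2, and its difference of -3.64 (adjusted p = 0.077) missed the threshold.

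Other genes of CD4 cells had some of the largest differences in the comparison. Where a gene was not above background on any array of the dimmer group, its fold is a lower bound, set against the lowest signal that counted as above background. Ptgir, the prostacyclin receptor, had levels of -5.28, -6.48 and -7.37 in CD8 cells, all at background, and -0.15, -0.04 and -0.45 in CD4 cells, and was at least 24.7-fold lower in CD8 cells with a fitted difference of -6.16 (adjusted p = 0.00015). P4ha2, a subunit of collagen prolyl hydroxylase, was at least 18-fold lower, with -0.75, -0.91 and -0.35 on the CD4 arrays and a fitted -5.65 (adjusted p = 4.5e-05). Cd40lg, which encodes the CD40 ligand through which CD4 cells help B cells, had -6.40, -6.79 and -7.59 on the CD8 arrays and -2.16, -2.49 and -2.21 on the CD4 arrays and was at least 5.87-fold lower with a fitted -4.64 (adjusted p = 0.0039). The CD4 arrays of all 3 genes lay within 1 unit of each other. Ptgir and P4ha2 stayed called against CD4 replicate 3 alone, at adjusted p = 0.02 and 0.0052, and Cd40lg did not, at 0.1.

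Itgb3, the integrin beta 3 chain, was above background everywhere and had 0.35, 0.44 and 0.28 in CD8 and 4.56, 4.62 and 4.14 in CD4 cells, a difference of -4.08 ± 0.18 (SE, adjusted p = 3.4e-06) or 16.9-fold lower. St8sia6, a sialyltransferase, had -1.03, -1.46 and -1.42 on the CD8 arrays and 2.78, 2.80 and 2.82 on the CD4 arrays, a difference of -4.10 ± 0.28 (SE, adjusted p = 4.5e-05) or 17.2-fold lower. Both were lower on every CD8 array and stayed called against CD4 replicate 3 alone, at adjusted p = 0.00085 and 0.0065. Wnt3, a secreted Wnt ligand, was at least 6.35-fold lower with CD4 levels of -2.11, -2.19 and -2.21. Irak3, an inhibitor of Toll-like receptor signalling, was at least 6.53-fold lower with -2.12, -2.11 and -2.16. The 3 CD4 arrays of both genes lay close together. Myo10, an unconventional myosin, was at least 14.7-fold lower, with a call against all 3 CD4 arrays at adjusted p = 0.0025 and none against replicate 3 alone (adjusted p = 0.11). Myo10 also lost its call with the slide block (adjusted p = 0.063).

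**Figure D3:**
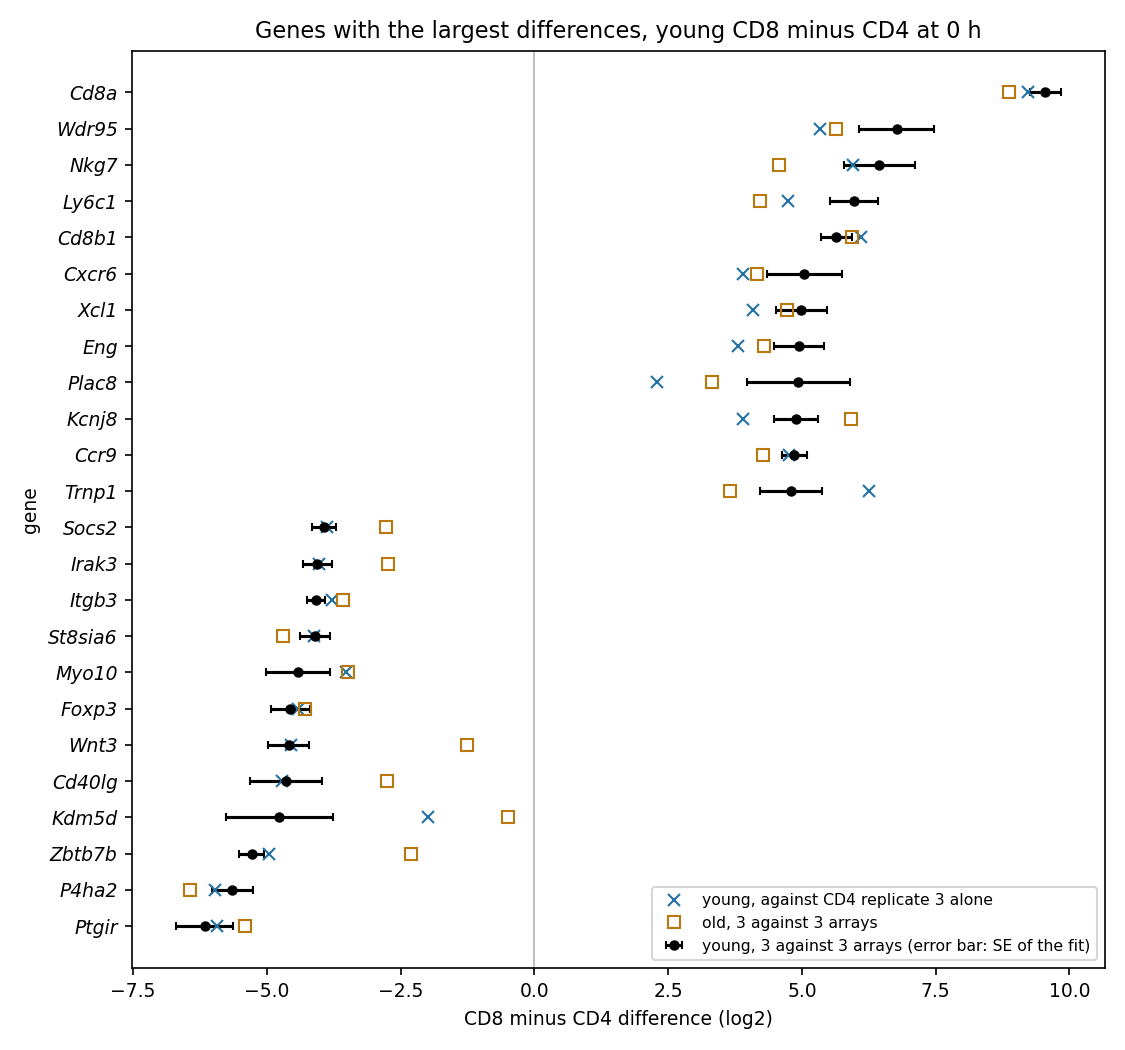
CD8 minus CD4 difference on the log2 scale for the 12 genes with the largest positive and the 12 with the largest negative difference in young cells. Black points with error bars are the young difference with its SE (3 against 3 arrays), blue crosses the same against CD4 replicate 3 alone, and open squares the difference in old cells. All 3 symbols of each gene lie on the same side of 0. For Wnt3, Zbtb7b and Kdm5d the old difference lies far closer to 0 than both young ones, and for Kdm5d and Plac8 so does the difference against CD4 replicate 3 alone.

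Genes of the cytotoxic machinery were higher in CD8 cells for a minority of the list. Nkg7, a granule membrane protein of killer cells, had levels of 6.83, 6.69 and 6.72 in CD8 and 0.03, 0.09 and 0.79 in CD4 cells, a difference of 6.45 ± 0.66 (SE, adjusted p = 0.00054) or 87.2-fold higher; another probe of the gene differed by 6.35 (adjusted p = 4e-04). Its CD8 arrays lay within 0.2 of each other. Gzmm, which encodes granzyme M, had 1.62, 1.66 and 1.45 on the CD8 arrays and -2.21, -2.11 and -2.22 on the CD4 arrays, a difference of 3.76 ± 0.26 (SE, adjusted p = 4.5e-05). Ctsw, the protease cathepsin W, had 5.64, 5.37 and 5.37 on the CD8 arrays and 1.77, 1.93 and 1.44 on the CD4 arrays, a difference of 3.75 ± 0.29 (SE, adjusted p = 8.6e-05). Cst7, the protease inhibitor cystatin F, differed by 3.09 (adjusted p = 0.0016). All 4 stayed called against CD4 replicate 3 alone, at adjusted p = 0.046, 0.0065, 0.0066 and 0.046.

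Over the 24 tested cytotoxic granule and death ligand genes, 5 were called higher and 1 lower, with a median of 0.47 and with 4 and 1 called against CD4 replicate 3 alone. The gene called lower was Fasl, the ligand of the death receptor Fas, which had -2.58, -3.29 and -3.27 on the CD8 and -0.52, -0.54 and -0.52 on the CD4 arrays, a difference of -2.52 ± 0.21 (SE, adjusted p = 0.00012), and -2.53 (adjusted p = 0.014) against CD4 replicate 3 alone. Prf1, the pore-forming perforin, had 2.96, 3.90 and 3.83 on the CD8 arrays and 3.00, 2.94 and 0.98 on the CD4 arrays, which overlapped because CD8 replicate 1 lay below CD4 replicate 1, and was not called (adjusted p = 0.45). Gzmk, granzyme K, had a difference of 1.64 (adjusted p = 0.18). The main fit called 20.8% of the 24 higher and 4.17% lower, beside 2.38% and 1.42% of all genes.

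Among natural killer receptor genes, 3 of 22 tested were called higher and 0 lower, with a median of 1.01, and the same counts held against CD4 replicate 3 alone, where the median was 0.21. Klrd1, the CD94 chain that pairs with NKG2 receptors, had 5.77, 5.21 and 5.26 in CD8 and 1.68, 1.63 and 1.58 in CD4 cells, a difference of 3.79 ± 0.29 (SE, adjusted p = 8.4e-05) or 13.8-fold higher. Cd160, a receptor for herpesvirus entry mediator, had -3.29, -2.27 and -2.37 and was not above background in any CD4 array, and was at least 4.4-fold higher. Klra6, a Ly49 receptor, was above background on 2 of 3 CD8 arrays and none of the CD4 arrays, and was at least 1.71-fold higher (adjusted p = 0.0038), a call lost with the slide block (adjusted p = 0.18). Klrk1, which encodes NKG2D, and Klrc1, an NKG2 chain, missed the threshold at 2.30 (adjusted p = 0.083) and 2.62 (adjusted p = 0.13). In both, CD4 replicate 3 lay above the other CD4 arrays. The main fit called 13.6% of the list higher, beside 2.38% of all genes. Without CD4 replicate 3 the list had 5 members called.

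The chemokine receptor genes Ccr9, Cxcr3 and Cxcr6 were called higher in CD8 cells, and Ccr7 and Cxcr5 were not called. Ccr9, the gut-homing receptor for CCL25, had 2.84, 2.60 and 2.44 on the CD8 arrays and -2.30, -2.28 and -2.13 on the CD4 arrays, a difference of 4.86 ± 0.23 (SE, adjusted p = 6.5e-06) or 29-fold higher. It was among the 5 genes with the smallest adjusted p and stayed at 4.75 (adjusted p = 0.0018) against CD4 replicate 3 alone. Cxcr3, the receptor for interferon-induced chemokines, had 4.25, 4.61 and 4.42 on the CD8 arrays and -0.31, -0.30 and 1.45 on the CD4 arrays, a difference of 4.15 ± 0.43 (SE, adjusted p = 0.00055), and 2.98 (adjusted p = 0.0079) against replicate 3, the highest of the CD4 arrays. Cxcr6 had 2.92, 4.11 and 3.98 on the CD8 arrays and -1.86, -2.02 and -0.22 on the CD4 arrays, a difference of 5.04 (adjusted p = 0.003), and 3.90 (adjusted p = 0.12) against replicate 3 alone.

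Itgae, the CD103 integrin chain that binds E-cadherin, had 2.42, 1.74 and 1.65 on the CD8 arrays and -1.59, -1.60 and -0.09 on the CD4 arrays, a difference of 3.03 (adjusted p = 0.013) that was lost without CD4 replicate 1 or 2 (adjusted p = 0.063 to 0.064) and against replicate 3 alone (adjusted p = 0.19). Of 31 tested homing receptors and integrins, 6 were called higher and 1, Itgb3, lower, with a median of 0.10, and 3 and 1 against CD4 replicate 3 alone. Cxcr5, the receptor that brings lymphocytes to follicles, just missed the threshold at 2.00 (adjusted p = 0.05), with all 3 CD8 arrays above the CD4 arrays. Itga1 was not called, at 1.74 (adjusted p = 0.23). The main fit called 19.4% of the list higher and 3.23% lower, beside 2.38% and 1.42% of all genes. In the fit of single probes another Itgae probe differed by 2.28 (adjusted p = 0.068).

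Cytokine and chemokine genes differed in both directions. Xcl1, a chemokine that attracts dendritic cells bearing its receptor, had 0.31, 0.55 and 0.61 in CD8 cells and -4.76, -5.13 and -3.60 in CD4 cells, where 1 of 3 arrays was above background. The fitted difference was 4.99 ± 0.48 (SE, adjusted p = 0.00032), and 4.09 (adjusted p = 0.024) against replicate 3, which was that array. Ccl5, the RANTES gene, had 5.88, 5.50 and 5.45 on the CD8 arrays and 1.77, 1.65 and 2.83 on the CD4 arrays, a difference of 3.53 (adjusted p = 0.003) and 2.78 (adjusted p = 0.12) against replicate 3. Lower in CD8 cells was Csf1, the macrophage growth factor, which was above background on 1 of 3 CD8 arrays, with -4.22, -5.29 and -5.21 on the CD8 arrays and -2.02, -2.06 and -1.66 on the CD4 arrays, a difference of -2.99 (adjusted p = 0.00041), beside Cd40lg and Fasl. In all, 3 of 30 tested cytokines and chemokines were called higher and 3 lower, with a median of -0.08. These were 10% each way, beside 2.38% and 1.42% of all genes. Ifng, with 3.12, 0.89 and 0.90 in CD8 and -1.16, -0.96 and 0.65 in CD4 cells, missed the threshold (adjusted p = 0.16), as did Ccl4, with 2.77, 0.37 and 0.18 on the CD8 arrays and -2.24, -2.12 and 0.16 on the CD4 arrays (adjusted p = 0.14). In both genes CD8 replicate 1 lay more than 2 units above CD8 replicates 2 and 3. Ccl5 also lost its call with the slide block (adjusted p = 0.16).

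Cytokine receptors were called mostly higher in CD8 cells. Of 30 tested cytokine receptor genes, 5 were called higher (16.7%, beside 2.38% of all genes) and 1, Il2ra, lower, with a median of -0.05. Both against CD4 replicate 3 alone and with the slide as a random block 1 was higher and 1 lower. Il2rb, the beta chain shared by the receptors for interleukin 2 and interleukin 15, had 4.97, 5.22 and 4.96 on the CD8 arrays and 3.35, 3.37 and 3.42 on the CD4 arrays, a difference of 1.67 ± 0.20 (SE, adjusted p = 0.0014) or 3.19-fold higher, and 1.63 (adjusted p = 0.077) against replicate 3 alone. Il18rap, part of the interleukin 18 receptor, was measured on 1 of 3 CD4 arrays and differed by 3.45 (adjusted p = 0.0013), and 2.30 (adjusted p = 0.014) against that array, replicate 3. Il12rb1 and Ifngr1 differed by 1.36 (adjusted p = 0.0067) and 1.08 (adjusted p = 0.0077), and neither was called against replicate 3 alone. Il7r, the interleukin 7 receptor on which naive T cells depend, had 5.16, 5.54 and 5.58 on the CD8 arrays and 5.26, 5.32 and 4.80 on the CD4 arrays, which overlapped. Il6ra had -1.02, 0.16 and 0.17 on the CD8 arrays and 1.46, 1.49 and -0.31 on the CD4 arrays, where CD4 replicates 1 and 2 lay above all CD8 arrays and replicate 3 did not. With the slide block Il18rap, Il12rb1 and Ifngr1 lost their calls (adjusted p = 0.052, 0.16 and 0.055).

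The T cell receptor signalling list had 1 of 45 tested genes called higher (2.22%, beside 2.38% of all genes). It had 1 called lower (2.22%, beside 1.42%) and a median of 0.12. Trat1, a transmembrane adaptor of the receptor complex, had 0.29, 0.83 and 0.75 on the CD8 arrays and 4.02, 4.10 and 3.11 on the CD4 arrays, a difference of -3.12 ± 0.26 (SE, adjusted p = 0.00014) or 8.68-fold lower, and stayed called against replicate 3 alone (adjusted p = 0.0067). Ptpn22, a phosphatase that restrains receptor signals, differed by 1.37 (adjusted p = 0.018) and lost its call without CD4 replicate 1 or 2 or CD8 replicate 1, 2 or 3 (adjusted p = 0.058 to 0.07). Cd5, another negative regulator, had 6.47, 6.50 and 6.39 on the CD8 arrays and 7.04, 7.12 and 6.99 on the CD4 arrays. All its CD4 arrays were higher, and the difference of -0.60 ± 0.15 (SE, adjusted p = 0.061) missed the threshold. Ptpn22 was also not called against replicate 3 alone (adjusted p = 0.15) or with the slide block (adjusted p = 0.26).

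Costimulatory and inhibitory receptors split by direction, with 4 of 32 tested genes called higher and 6 lower, and 2 and 1 against CD4 replicate 3 alone. Crtam, an adhesion receptor of activated killer cells, had 4.11, 4.35 and 4.29 on the CD8 arrays and 2.33, 2.37 and 1.39 on the CD4 arrays, a difference of 2.22 (adjusted p = 0.0098). Cd226, the DNAM-1 receptor, had 1.24, 1.90 and 1.62 on the CD8 arrays and -0.02, -0.05 and -0.56 on the CD4 arrays, a difference of 1.80 (adjusted p = 0.0014) that held against replicate 3 alone (adjusted p = 0.02). Tnfsf14, the LIGHT ligand, differed by 1.80 (adjusted p = 0.01) and lost its call without CD4 replicate 1 or 2 or CD8 replicate 3 (adjusted p = 0.052 to 0.054). Lower in CD8 cells were Tnfrsf4, the OX40 receptor, with 1.503, 0.69 and 0.68 on the CD8 arrays and 2.68, 2.75 and 2.83 on the CD4 arrays, and Tnfrsf25, the receptor DR3, with 4.15, 4.37 and 4.26 on the CD8 arrays and 5.81, 5.72 and 5.63 on the CD4 arrays. Their differences were -1.79 (adjusted p = 0.0026) and -1.46 (adjusted p = 0.0079), and against replicate 3 alone -1.87 (adjusted p = 0.084) and -1.37 (adjusted p = 0.14). Cd28, the receptor engaged on the stimulation plates, had 1.07, 0.99 and 0.95 in CD8 and 1.23, 1.26 and 1.47 in CD4 cells and was not called (adjusted p = 0.45). Crtam and Tnfsf14 were not called against replicate 3 alone (adjusted p = 0.055 and 0.18). Tnfsf14, Cd226 and Tnfrsf25 were not called with the slide block (adjusted p = 0.2, 0.062 and 0.2). The main fit called 12.5% of the list higher and 18.8% lower, beside 2.38% and 1.42% of all genes.

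G protein-coupled receptors and genes of cyclic AMP had 3 of 39 tested members called higher and 4 lower. These were 7.69% and 10.3%, beside 2.38% and 1.42% of all genes. Cnr2, the peripheral cannabinoid receptor, had 2.42, 2.69 and 2.68 on the CD8 arrays and 0.67, 0.73 and 0.42 on the CD4 arrays, a difference of 1.99 (adjusted p = 0.0016). Pde7a, a phosphodiesterase that breaks down cyclic AMP, had 2.01, 1.89 and 1.93 on the CD8 arrays and 0.15, 0.21 and 0.24 on the CD4 arrays, a difference of 1.74 ± 0.17 (SE, adjusted p = 0.00031) with arrays of each cell type within 0.2 of each other, and 1.70 (adjusted p = 0.03) against replicate 3. Gpr174 differed by 1.17 (adjusted p = 0.0027). Beside Ptgir and Gpr83, the lower genes were Ramp3, at -1.25 (adjusted p = 0.04), which lost its call without CD4 replicate 1 or 2 or CD8 replicate 1, 2 or 3 (adjusted p = 0.089 to 0.16), and Rgs14, at -0.78 (adjusted p = 0.041), which lost it without CD4 replicate 1 or 2 or CD8 replicate 2 or 3 (adjusted p = 0.13 to 0.17). Cnr2, Gpr174, Ramp3 and Rgs14 were not called against replicate 3 alone (adjusted p = 0.051, 0.059, 0.29 and 0.25), nor Ramp3 and Rgs14 with the slide block (adjusted p = 0.3 for both).

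Kcnj8, a potassium channel subunit, had 1.25, 0.98 and 0.83 on the CD8 arrays and -4.53, -4.19 and -2.88 on the CD4 arrays, was above background on 2 of 3 CD4 arrays, and differed by 4.89 ± 0.42 (SE, adjusted p = 0.00014). Slc16a1, the lactate transporter MCT1, had 3.14, 3.05 and 3.11 on the CD8 arrays and 1.29, 1.49 and 1.42 on the CD4 arrays, a difference of 1.70 ± 0.16 (SE, adjusted p = 0.00027) or 3.24-fold higher. Both stayed called against replicate 3 alone, at adjusted p = 0.0065 and 0.023, and they were the only called genes among 30 tested channels and transporters. They made up 6.67% of that list, beside 2.38% of all genes called higher. Among 33 tested sialyltransferase and glycan genes 4 were called higher and 2 lower. These were 12.1% and 6.06%, beside 2.38% and 1.42% of all genes. St3gal6 had 2.76, 2.87 and 2.77 on the CD8 arrays and 0.66, 0.68 and 0.83 on the CD4 arrays, a difference of 2.08 ± 0.15 (SE, adjusted p = 6.4e-05) or 4.22-fold higher, and St6galnac4 differed by 1.11 (adjusted p = 0.0016). Against these, St8sia6 was lower and St3gal2 had -1.12, -0.58 and -0.59 on the CD8 arrays and 1.26, 1.41 and 0.83 on the CD4 arrays, a difference of -1.93 (adjusted p = 0.0013). Sialyltransferases were called in both directions. Cmah, which hydroxylates sialic acid, and Ggta1, which adds alpha-linked galactose, differed by 0.90 (adjusted p = 0.0071) and 0.87 (adjusted p = 0.049), and the call of Ggta1 was lost without any 1 of the 6 arrays (adjusted p = 0.064 to 0.17). Against replicate 3 alone St6galnac4, St3gal2, Cmah and Ggta1 were not called (adjusted p = 0.083, 0.081, 0.14 and 0.26), and with the slide block Cmah and Ggta1 were not (adjusted p = 0.079 and 0.33).

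Several of the largest positive differences lay outside the groups above. Ly6c1, a surface antigen of memory CD8 cells, had 6.996, 6.62 and 6.45 on the CD8 arrays and 0.14, 0.05 and 1.94 on the CD4 arrays, a difference of 5.98 ± 0.45 (SE, adjusted p = 6.9e-05), and 4.75 (adjusted p = 0.0014) against replicate 3, the highest CD4 array; another probe differed by 6.75 (adjusted p = 0.00047). Eng, the TGF-beta coreceptor endoglin, had -0.03, -0.32 and -0.30 on the CD8 arrays and -5.44, -6.05 and -4.02 on the CD4 arrays, and was above background on 1 of 3 CD4 arrays, with a fitted 4.95 (adjusted p = 0.00029). Nedd4, a ubiquitin ligase, had 0.27, 0.30 and 0.20 on the CD8 arrays and -3.82, -3.93 and -4.07 on the CD4 arrays, a difference of 4.19 ± 0.17 (SE, adjusted p = 3.4e-06), and 2 of 3 CD4 arrays above background. Wdr95 had 1.37, 0.75 and 0.81 on the CD8 arrays and -6.92, -6.11 and -4.35 on the CD4 arrays, 1 of 3 CD4 arrays above background and a fitted 6.77 (adjusted p = 0.00056), and Trnp1 had 1.07, 1.21 and 0.89 on the CD8 arrays and -2.66, -3.37 and -5.19 on the CD4 arrays, a difference of 4.80 (adjusted p = 0.0013). The 5 genes stayed called against replicate 3 alone, at adjusted p between 0.00085 for Nedd4 and 0.029 for Wdr95. Plac8 did not: it had 4.11, 3.49 and 3.52 on the CD8 arrays and -2.60, -2.505 and 1.42 on the CD4 arrays, a difference of 4.94 (adjusted p = 0.019), 2.29 (adjusted p = 0.17) against replicate 3, and lost its call without CD4 replicate 1 or 2 or CD8 replicate 1, 2 or 3 (adjusted p = 0.062 to 0.084). Wdr95 and Plac8 lost their calls with the slide block (adjusted p = 0.064 and 0.089).

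**Figure D4:**
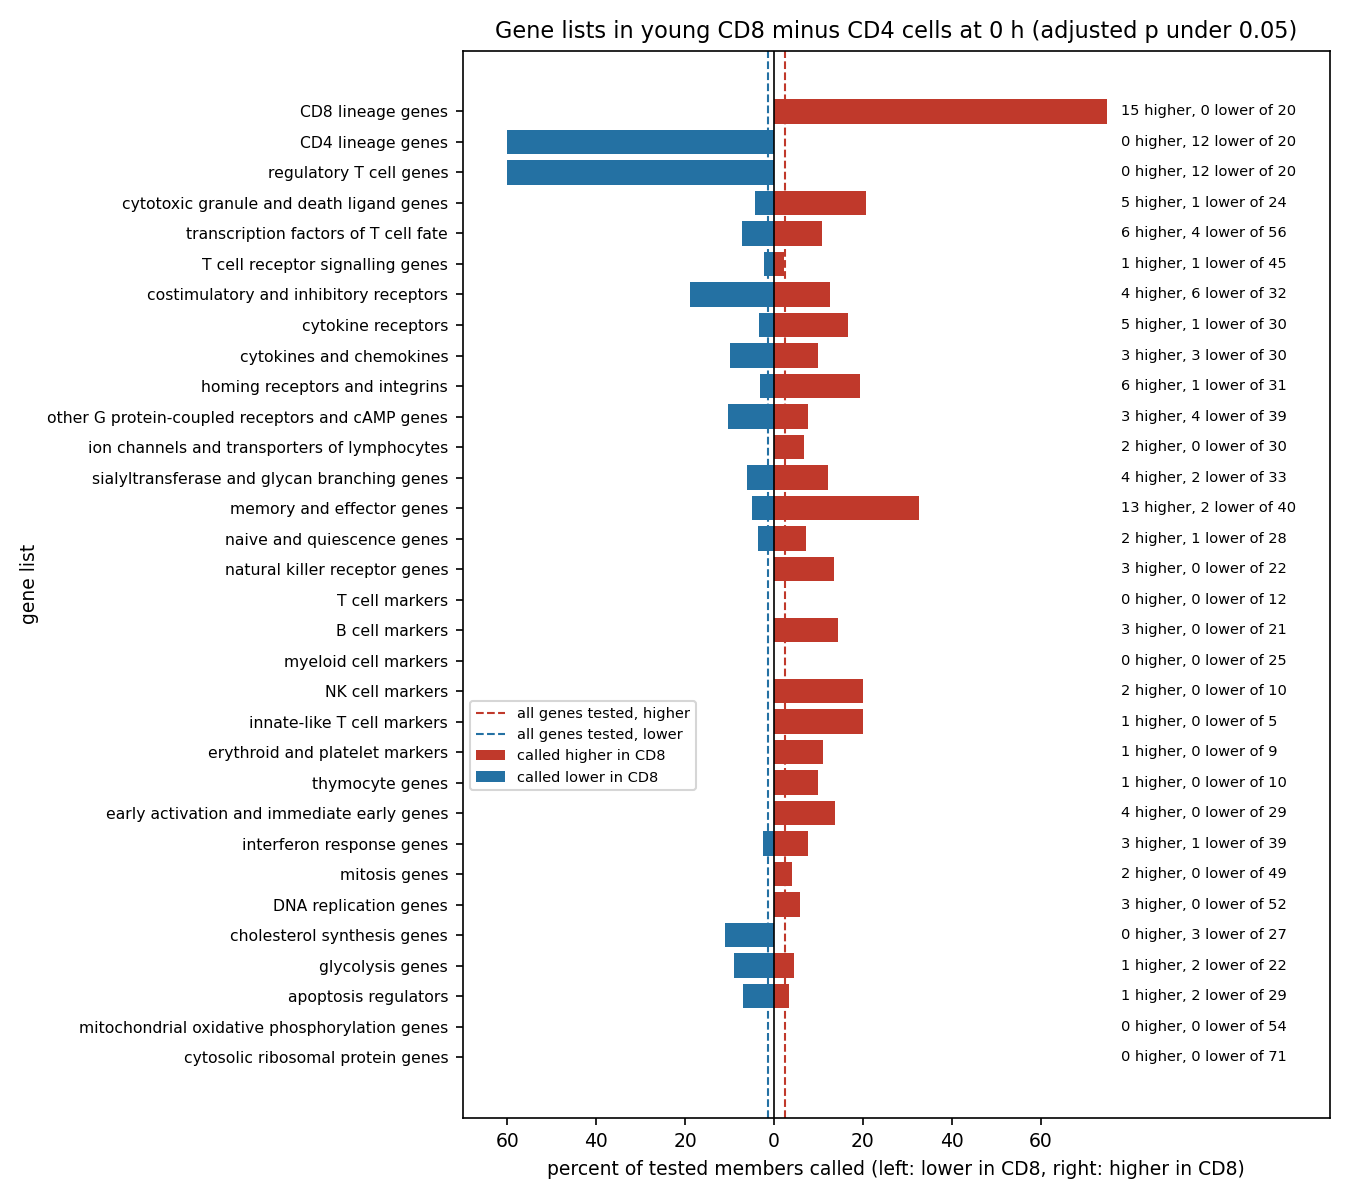
Share of the tested members of each of 32 gene lists that were called higher (red, right) or lower (blue, left) in young CD8 than in young CD4 cells at 0 h, in percent, with the counts beside each bar. Dashed lines mark the shares over all 19397 genes tested, 2.38% higher and 1.42% lower. The CD8 lineage list reaches 75% higher, and the CD4 lineage and regulatory T cell lists 60% lower.

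Memory and effector genes were called mostly higher in CD8 cells. Of 40 tested memory and effector genes 13 were called higher and 2, Fasl and Prdm1, lower, with a median of 0.81, and 6 and 1 against CD4 replicate 3 alone. The main fit called 32.5% higher and 5% lower, beside 2.38% and 1.42% of all genes. With the slide as a random block 9 were higher and 1 lower. Of 28 naive and quiescence genes 2 were called higher and 1 lower, with a median of 0.05, and 1 and 0 against CD4 replicate 3 alone. These were Nsg2, at 2.20 ± 0.17 (SE, adjusted p = 9.9e-05) with 5.41, 5.62 and 5.37 on the CD8 arrays and 3.23, 3.27 and 3.29 on the CD4 arrays, Cnr2, and Igfbp4, a binding protein of insulin-like growth factors, at -2.51 (adjusted p = 0.002) with -0.26, 0.72 and 0.47 on the CD8 arrays and 3.02, 2.94 and 2.495 on the CD4 arrays. The lists share members with others, and Nkg7, Eomes and Klrd1 stand in both the memory and the CD8 lineage lists. Igfbp4 was not called against replicate 3 alone (adjusted p = 0.1). Of the naive list 7.14% was called higher and 3.57% lower, beside 2.38% and 1.42% of all genes. The difference between the memory and naive lists was not tested.

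Of 49 tested mitosis genes 2 were called higher (4.08%, beside 2.38% of all genes) and 0 lower, with a median of 0.53 that was -0.04 against CD4 replicate 3 alone. Racgap1, a regulator of cytokinesis, had 1.44, 0.89 and 0.88 on the CD8 arrays and -3.40, -3.28 and -2.21 on the CD4 arrays, a difference of 4.03 ± 0.31 (SE, adjusted p = 8.5e-05) that held at 3.27 (adjusted p = 0.0046) against replicate 3, and Kif23, the kinesin it works with, had 1.85, 2.05 and 2.07 on the CD8 arrays and 0.23, 0.22 and 0.31 on the CD4 arrays, a difference of 1.74 (adjusted p = 0.00075). Bub1, a mitotic checkpoint kinase, had -2.51, -4.46 and -4.35 on the CD8 arrays and -6.86, -6.03 and -3.82 on the CD4 arrays, which overlapped. Of 52 DNA replication genes 3 were called higher (5.77%), Pole at 1.13 (adjusted p = 0.0027), Mcm6 at 1.09 (adjusted p = 0.007) and Ccne1 at 0.83 (adjusted p = 0.018), and none of the 3 against replicate 3 alone. The call of Ccne1 was lost without CD4 replicate 1 or 2 or CD8 replicate 2 (adjusted p = 0.055 to 0.068). The list's median was 0.39. Kif23 was not called against replicate 3 alone (adjusted p = 0.053), which left 1 mitosis gene, and Mcm6 and Ccne1 lost their calls with the slide block (adjusted p = 0.19 for both).

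Early activation genes had 4 of 29 tested members called higher and 0 lower, and none against CD4 replicate 3 alone. Myc, a driver of growth, had 4.12, 3.92 and 3.96 on the CD8 arrays and 2.87, 2.91 and 2.76 on the CD4 arrays, a difference of 1.15 (adjusted p = 0.011). Ier3 differed by 3.77 (adjusted p = 0.017) and lost its call without CD4 replicate 1 or 2 or CD8 replicate 2 or 3 (adjusted p = 0.057 to 0.082), and Dusp6, a phosphatase of ERK, differed by 1.00 (adjusted p = 0.046) and lost it without any 1 of the 6 arrays (adjusted p = 0.065 to 0.16). Nr4a2, which receptor signals induce, had 0.24, -2.64 and -2.73 in CD8 cells, with replicate 1 more than 2 units above the others, and was not called (adjusted p = 0.53). Interferon response genes had 3 of 39 called higher, Ly6a at 3.22 (adjusted p = 0.01), Mx1 at 2.52 (adjusted p = 0.0076) and Ifit3 at 1.30 (adjusted p = 0.042), and 1 lower, Iigp1 at -1.02 (adjusted p = 0.018). None was called against replicate 3 alone, and single arrays ended the calls of Ly6a, without CD4 replicate 1 or 2 (adjusted p = 0.051 to 0.052), Ifit3, without any 1 of the 6 arrays (adjusted p = 0.055 to 0.16), and Iigp1, without CD4 replicate 1 or 2 or CD8 replicate 2 or 3 (adjusted p = 0.067 to 0.083). The main fit called 13.8% of the early activation list higher, and 7.69% of the interferon list higher and 2.56% lower. Over all genes the shares were 2.38% higher and 1.42% lower. With the slide as a random block 0 genes of either list were called (limma, adjusted p between 0.16 and 0.59 for the 7 named genes called above).

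Of 27 cholesterol synthesis genes 3 were called lower (11.1%, beside 1.42% of all genes), and 0 against CD4 replicate 3 alone or with the slide as a random block. Among them were Sqle at -1.95 (adjusted p = 0.037) and Fdft1 at -1.12 (adjusted p = 0.022). Sqle lost the call without CD4 replicate 1 or 2 or CD8 replicate 2 or 3 (adjusted p = 0.053 to 0.15) and Fdft1 without CD4 replicate 1 or 2 or CD8 replicate 1 or 3 (adjusted p = 0.061 to 0.1). Of 22 glycolysis genes Slc16a1 was higher, and Ldhb, at -1.31 (adjusted p = 0.02), and Aldoc, at -1.10 (adjusted p = 0.021), were lower; Ldhb lost the call without CD4 replicate 1 or 2 or CD8 replicate 2 or 3 (adjusted p = 0.08 to 0.092) and Aldoc without CD4 replicate 1 or 2 or CD8 replicate 2 or 3 (adjusted p = 0.066 to 0.098). Among 29 apoptosis regulators Bid, a death agonist, was higher at 1.22 (adjusted p = 0.0054), and Casp4 was lower at -1.46 (adjusted p = 0.0068), beside Fasl. None of the 54 genes of oxidative phosphorylation was called, nor any of the 71 cytosolic ribosomal protein genes (limma), with 6 and 12 at an unadjusted p under 0.05, all higher. Their medians were 0.38 and 0.37, 0.22 and 0.09 after quantile normalization, and 0.73 and 0.81 against CD4 replicate 3 alone. Sqle, Fdft1, Ldhb, Aldoc, Bid and Casp4 were not called against replicate 3 alone (adjusted p = 0.093 to 0.29), nor the first 4 with the slide block (adjusted p = 0.11 to 0.54).

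Myeloid transcripts moved with single arrays. The summed level of 24 myeloid markers, in multiples of the array's 75th percentile, was 46.1 on CD8 replicate 1 and 9.45 and 9.14 on CD8 replicates 2 and 3, against 4.16 and 4.09 on CD4 replicates 1 and 2 and 248.4 on CD4 replicate 3. Lyz2, lysozyme of myeloid cells, had levels of 4.57, 2.44 and 2.45 on the CD8 arrays and -0.04, -0.39 and 5.66 on the CD4 arrays. None of 25 tested myeloid markers was called (limma, with 0 at an unadjusted p under 0.05), with a median of -0.65, and -2.28 against CD4 replicate 3 alone. Genes named here with CD4 replicate 3 above replicates 1 and 2, such as Plac8, Ly6c1 and Cxcr6, share that array with the myeloid markers, and the part of other cells in their values was not tested.

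B cell markers were higher in CD8 cells for 3 of 21 tested genes and lower for 0, with a median of 1.04, and 0.04 against CD4 replicate 3 alone. Cd79b, a chain of the B cell receptor, had 2.41, 2.55 and 2.64 on the CD8 arrays and -0.95, -0.86 and 0.22 on the CD4 arrays, a difference of 3.07 ± 0.35 (SE, adjusted p = 0.00098), and 2.31 (adjusted p = 0.048) against replicate 3. Its partner Cd79a had -4.04, -3.996 and -4.18 on the CD8 arrays and was not called (adjusted p = 0.91). Pax5, the B lineage factor, was above background on none of the 6 arrays. Ighm differed by 1.19 (adjusted p = 0.018), with a value missing on CD4 replicate 1, and Cd72 by 0.95 (adjusted p = 0.026). Ighm lost its call without CD4 replicate 2 or 3 or CD8 replicate 2 or 3 (adjusted p = 0.056 to 0.083), and Cd72 without any 1 of the 6 arrays (adjusted p = 0.052 to 0.1). The main fit called 14.3% of the list higher, beside 2.38% of all genes. With CD4 replicate 3 left out 6 B cell markers were called, and without CD4 replicate 2, CD8 replicate 2 or CD8 replicate 3 only 1. The summed level of 20 B cell markers was 20.1 to 29.3 on the CD8 arrays and 6.92 to 13.5 on the CD4 arrays. With the slide as a random block 0 B cell markers were called (limma), and Cd79b, Ighm and Cd72 had adjusted p = 0.059, 0.2 and 0.14. Against replicate 3 alone Ighm and Cd72 were not called (adjusted p = 0.081 and 0.14).

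NK cell markers had 2 of 10 tested genes called higher, Eomes and Il18rap, both also made by CD8 T cells. Ncr1, Klrb1c and Klra8, taken here as markers of NK cells, were not called (limma, adjusted p = 0.78, 0.64 and 0.22). Whether NK cells of BALB/c mice express each of them was not tested. The summed level of all 10 markers, Eomes and Il18rap among them, was 8.33 to 10.9 on the CD8 arrays and 1.85, 1.99 and 6.20 on the CD4 arrays. Within it Eomes had log2 levels of 2.25, 2.60 and 2.44 on the CD8 and -2.22, -2.09 and -2.22 on the CD4 arrays. The part of NK cells in the sum was not tested. Those called made up 20% of the list, beside 2.38% of all genes called higher. Of 9 erythroid and platelet markers only Car2, a carbonic anhydrase, was called, at 1.79 (adjusted p = 0.0091). Of 10 thymocyte genes only Ccr9 was called, and of 5 markers of innate-like T cells only Cd163l1, a scavenger receptor gene, at 4.33 (adjusted p = 0.0042) and 2.52 (adjusted p = 0.051) against CD4 replicate 3, the only CD4 array on which it was above background. Car2 was not called against replicate 3 alone (adjusted p = 0.17).

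RefSeq promoters of the genes that differed were read for the motifs of RUNX and T-box factors, in windows of 300 bases around each start in the GRCm38.p6 assembly. The RUNX core TGTGGT, or ACCACA on the other strand, was present in 69 of 316 genes called higher that had a promoter in the table, or 21.8%, and in 31 of 197 called lower, or 15.7%. Over all tested genes it was in 1909 of 12086, or 15.8%. The T-box element AGGTGTGA, or TCACACCT, was in 2.22%, 1.52% and 1.31%. Both strands were searched, and the motifs do not overlap each other in the promoters printed. These 4 promoters are printed because they belong to genes with large differences and hold at least 1 of these motifs, with motif letters in capitals: Nkg7 at chr7:43436888-43437187 on the plus strand, Gzmm at chr10:79688770-79689069 on the plus strand, Cxcr3 at chrX:101734098-101734397 on the minus strand, and, as a gene lower in CD8 cells, the second listed start of Zbtb7b at chr3:89387622-89387921 on the minus strand.
Nkg7: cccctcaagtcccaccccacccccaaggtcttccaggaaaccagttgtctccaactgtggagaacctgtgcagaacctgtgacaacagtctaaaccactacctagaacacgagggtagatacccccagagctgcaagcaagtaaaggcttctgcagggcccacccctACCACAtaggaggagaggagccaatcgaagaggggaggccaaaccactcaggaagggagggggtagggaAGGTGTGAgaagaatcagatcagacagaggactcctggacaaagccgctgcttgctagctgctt
Gzmm: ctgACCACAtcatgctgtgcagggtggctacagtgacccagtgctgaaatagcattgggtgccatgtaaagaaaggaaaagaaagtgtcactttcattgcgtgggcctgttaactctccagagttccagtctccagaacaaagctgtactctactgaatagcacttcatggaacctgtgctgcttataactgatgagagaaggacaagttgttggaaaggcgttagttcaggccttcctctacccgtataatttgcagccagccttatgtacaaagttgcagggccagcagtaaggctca
Cxcr3: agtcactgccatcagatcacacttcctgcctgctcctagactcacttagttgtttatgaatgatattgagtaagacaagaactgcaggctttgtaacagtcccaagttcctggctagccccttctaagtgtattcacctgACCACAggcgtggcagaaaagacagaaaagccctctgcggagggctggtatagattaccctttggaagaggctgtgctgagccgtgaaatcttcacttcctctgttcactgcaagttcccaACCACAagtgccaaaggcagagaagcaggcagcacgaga
Zbtb7b: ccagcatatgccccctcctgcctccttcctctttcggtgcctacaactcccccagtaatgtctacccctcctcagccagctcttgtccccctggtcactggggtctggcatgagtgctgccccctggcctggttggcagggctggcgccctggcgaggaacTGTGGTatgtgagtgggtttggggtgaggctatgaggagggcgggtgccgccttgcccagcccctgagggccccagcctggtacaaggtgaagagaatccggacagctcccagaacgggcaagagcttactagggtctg
Nkg7 held 1 RUNX core and 1 T-box element, Gzmm 1 RUNX core, Cxcr3 2 RUNX cores and Zbtb7b 1 RUNX core at this start. The promoters of Cd8a, Eomes, Ccr9, Ly6c1, Foxp3 and Ptgir held neither motif in this window. Nor did the other listed start of Gzmm or that of Zbtb7b. Those of Xcl1 and Cst7 held 1 RUNX core each and are not printed. A match describes the letters and shows no binding, and the windows leave out distal enhancers.

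The same comparison in old cells, of 20 months, called 2062 genes, or 10.6% of those tested, 1227 higher (6.33%) and 835 lower (4.30%). Leaving out old CD4 replicate 1 or 2, or old CD8 replicate 1 or 2, gave 1205, 1261, 836 and 808 calls. Of the genes called in young cells, 318 of the 461 higher were also called higher in old cells, 69.0% of the young and 25.9% of the old list, and 179 of the 276 lower, 64.9% and 21.4%. Called in the opposite direction in old cells were 0 of the higher and 3 of the lower genes. The split of old calls moved with the scaling, with 435 higher and 671 lower after median scaling and 1094 and 1059 after quantile normalization. There were 106 higher and 34 lower genes called in young cells, in old cells and against CD4 replicate 3 alone. The young and old comparisons share no arrays, but the same 4 slides carried both ages. Both also come from a single fit with a common estimate of each gene's spread, so they are not independent tests. In old cells 17 of 20 CD8 lineage genes were called higher, and 13 of 20 CD4 lineage and 11 of 20 regulatory T cell genes lower.

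The test of the difference between ages called 10 genes, or 0.0516%, all of them more positive in old cells. Both the count and the direction differed in the fit that used the slide, and every slide at 0 h carried both ages: with the slide as a random block 2318 genes were called, the 10 among them, 1145 more positive and 1173 more negative in old cells. Gzmm was 1 of the 10, with 6.16, 6.21 and 5.61 on old CD8 and -1.01, -1.10 and -1.92 on old CD4 arrays, so that the difference in old cells, 7.33 ± 0.26 (SE, adjusted p = 8.6e-07), exceeded the young one by 3.58 ± 0.37 (SE, adjusted p = 0.011). All old CD8 arrays lay above all young CD8 arrays. Fasl turned, with 0.53, 0.46 and 0.70 on old CD8 and -0.23, -0.24 and 0.02 on old CD4 arrays, an old difference of 0.71 (adjusted p = 0.057) that missed the threshold, and a change of 3.24 ± 0.30 (SE, adjusted p = 0.011). Zbtb7b had -0.60, -0.67 and -0.81 and 1.85, 1.82 and 1.17 in old cells, where the difference was -2.31 (adjusted p = 0.00036), less negative than in young cells by 2.98 ± 0.33 (SE, adjusted p = 0.012). Lhfp, at background on all 6 young arrays, had -1.77, -2.02 and -2.67 on old CD8 arrays. The count moved with every array left out. It was 3, 0 and 29 without young CD4 replicates 1, 2 and 3, 19, 0 and 6 without young CD8 replicates 1, 2 and 3, 5, 6 and 40 without old CD4 replicates 1, 2 and 3, and 0, 0 and 80 without old CD8 replicates 1, 2 and 3. Where it was 0, between 1572 and 1746 genes had an unadjusted p under 0.05. Against young CD4 replicate 3 alone it was 1.

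After stimulation there was 1 array for each cell type and time, so the values that follow have no test and no replicate check. Every young CD4 array of these times was read on the older scanner and software version, and every CD8 array on the newer. Scanner and cell type therefore cannot be told apart here. The median coefficient of variation of repeat spots was 15.8%, 14.9% and 20.7% on the CD4 arrays at 12, 24 and 72 h. On the CD8 arrays it was 6.19%, 4.43% and 5.08%. At 4 h it was 4.82% on the CD4 and 5.06% on the CD8 array. Between 459 and 461 of the genes called higher at rest were measured at each time. Of these, 83.3%, 76.9%, 74.1% and 65.4% had a higher level on the CD8 than on the CD4 array at 4, 12, 24 and 72 h, beside 49.96%, 52.3%, 45.8% and 40.6% of all genes. Of those called lower, 273 to 276 of which were measured, 88.8%, 78.9%, 85.0% and 83.2% were lower at those times, beside 49.99%, 47.7%, 54.2% and 59.3% of all genes. At all 4 times 210 of the 461 higher and 166 of the 276 lower genes kept their sign. Cd8a had differences of 9.26, 8.60, 8.31 and 6.42 at 4, 12, 24 and 72 h, so the coreceptor separated the arrays throughout.

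Among the named genes some differences were kept and some closed. Nkg7 had 5.86, 5.84, 6.05 and 2.76 and Xcl1 5.80, 4.51, 6.50 and 6.21, both large until 24 h and the second also at 72 h. Eomes had 5.08, 3.29, 3.03 and 1.11, Cxcr3 1.49, 2.56, 2.40 and -0.03 and Tbx21 0.77, 1.51, 0.49 and -0.48, which were smaller at 72 h than at rest. Zbtb7b had -4.18, -4.61, -2.56 and -1.31 and Itgb3 -3.48, -3.73, -2.06 and -0.52, which moved toward 0. St8sia6 differed by -4.50 at 4 h, and at 12, 24 and 72 h its CD8 array was not well above background while the CD4 array was, so the size there was not measured. Il2ra, which T cells induce when activated, had 0.50, 0.27, -1.22 and 0.01, so the difference at rest was seen again only at 24 h. Klrc1, not called at rest, had 4.61 at 4 h and 8.37 at 72 h, and its CD4 array was not well above background at 12 and 24 h.

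**Figure D5:**
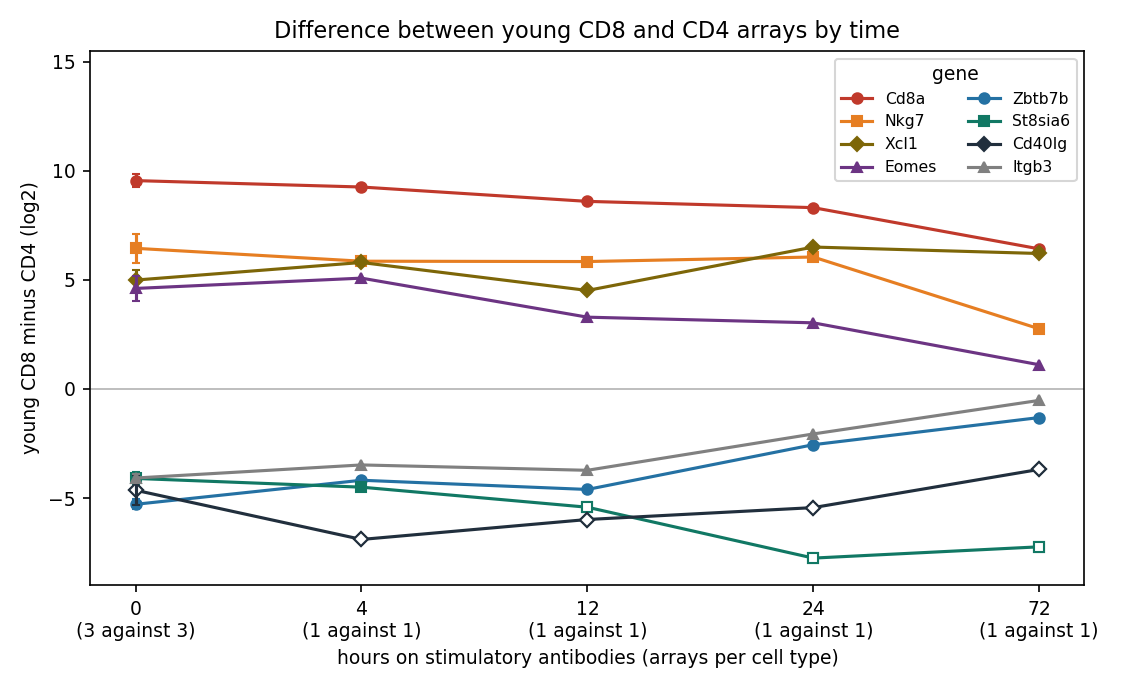
Difference between young CD8 and CD4 arrays on the log2 scale for 8 genes at 0 h (3 against 3 arrays, error bar SE of the fit) and at 4, 12, 24 and 72 h on stimulatory antibodies (1 against 1 array, no error). Cd8a stays at 6.42 or above, Nkg7 and Eomes come closer to 0 by 72 h, Zbtb7b and Itgb3 rise toward 0. From 4 h on, every CD4 array was read on the older scanner and every CD8 array on the newer. Open symbols mark times at which an array of the pair, or all arrays of a cell type at 0 h, were not well above background, as for Cd40lg at every time and St8sia6 from 12 h on, so that their size was not measured.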

How the data were processed

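Total RNA was amplified with Cy3 and hybridised to one-colour Agilent arrays, per the labels' protocols. The deposited files hold, per the file headers, background-subtracted signal intensity from Feature Extraction 10.1.1.1, or 9.5.1.1 on the older scanner. The authors' deposited value table holds log2 values of the same arrays, centred by gene, which correlated with the scanner values at 0.998 or more in differences between arrays. It served as an alternative, and its column medians ran from -0.211 to 0.293.

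Intensity was divided by the array's 75th percentile and taken to log2. Spots with outlier flags were set missing, repeat spots averaged, and each gene represented by its probe brightest over 28 arrays. Of 652 called genes with a matched name, 217 had another probe above background on at least 3 young arrays. For 200 of these 217, every such probe had the same sign as the probe used. Genes well above background on at least 3 of the 28 arrays were tested. Probes were named through RefSeq accessions (22951 of 41174), symbols (6659) or synonyms (3109), and 8455 kept the name in the file. Limma 3.58.1 in R 4.3.3 fitted 4 group means to the 12 arrays at 0 h, with Benjamini-Hochberg adjustment and a threshold of 0.05. The fit was also run on simulated data as a check of the code. The simulated arrays were independent, without correlation within a slide, so that run cannot show the rate of false calls here. The number of arrays limits the precision. No probe was saturated on the 6 young arrays.

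Named genes were a panel, the 12 largest called differences each way (bright group above background on every array, no overlap, name matched in RefSeq), up to 4 called members each way and 2 uncalled members past 1 on the log2 scale in each list, up to 10 genes called in the change with age, and the 5 smallest adjusted p. Some genes are not reported here. Members and lists were chosen with earlier results of these data known. Alternatives covered scaling, background, filters, probes, slide, scan day, software version, single arrays and the replicate number.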

Additional observations from a re-analysis of the deposited data

Results flagged for a closer look

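The difference between CD8 and CD4 cells changed with age for 10 genes by limma's test of that change, all toward more positive values in old cells in the fit without the slide. With the slide as a random block 2318 were called, these 10 among them, 1145 more positive and 1173 more negative. Fasl, the death ligand, changed by 3.24 and Gzmm, granzyme M, by 3.58, both at an adjusted p of 0.011. Zbtb7b, the CD4 lineage factor, changed by 2.98. Lhfp changed by 5.22, but it was above background on none of the 6 young arrays, so the fitted size is not a measured fold. The changes of Slc5a11, Phlda3, Tafa3, Hs3st3b1, Fn3k and Apobr were 3.61, 2.68, 2.03, 2.19, 3.04 and 2.74. Of these 6 genes, Tafa3 and Hs3st3b1 were called lower in young CD8 cells, at -1.10 and -1.08 (limma), and the others were not called there. Both young calls were lost with the slide as a random block (limma, adjusted p = 0.08 and 0.14). In the fit without the slide, all 10 adjusted p-values of the change with age lay between 0.011 and 0.029. Against young CD4 replicate 3 alone, none of the 10 was called and 1 other gene was.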

How the results depend on the processing

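Calls below are given for the young comparison of 737, the old one of 2062, the change with age of 10 and the list members of 102, in that order. Fitting only the groups compared gave 423 and 912. Median scaling gave 296, 1106, 0 (1197 at an unadjusted p under 0.05 by limma) and 63. For the old comparison it moved the split to 435 higher and 671 lower. Normexp on the median signal, chosen after seeing the data, gave 4268 in old cells, 3224 higher and 1044 lower, and 37 for the change. The planned normexp on the mean signal was not run, since that column was read from 10 of 28 arrays only. The change gave 23 after quantile normalization, 18 with floored signals, 6 without a filter on dim genes, 21 with a filter on the 6 young arrays and 17 with every probe on its own, and no filter gave 1296 in old cells. Slide as a random block gave 223, 454, 2318 (1145 more positive and 1173 more negative) and 57. Scanner and software version as a block gave 1818, 3749, 444 and 181, and the newer software version alone 2017, 3546, 304 and 196. Scan day as a block gave 3254, 6382, 2636 and 249, and the scan day of both cell types 6141, 9685, 5731 and 426, both chosen after seeing the data. CD4 replicate 3 as the only young CD4 array, also chosen then, gave 178, 1 for the change and 40 list members. Leaving out single arrays gave 408 to 846, 808 to 2496, 0 to 80 (1572 to 1746 at an unadjusted p under 0.05 where it was 0) and 73 to 110.

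The replicate number as a block gave 627, 2227, 7 and 95. The numbers do not pair the arrays: deviations of same-numbered arrays correlated at -0.188, 0.07 and -0.251. Of 98 named genes called, 57 kept the call with the slide block, 59 with median scaling, 93 with quantile normalization, 42 against CD4 replicate 3 alone and 72 in all 6 fits without 1 young array. Over 114 named genes no call turned its direction under these settings, while 18 values of 7 genes, called under neither setting, changed sign, 306 lost a call and 17 gained one. Arrays at 0 h number 3 a group, and signals near background limit the fold of dim genes to a lower bound. The cause of these shifts was not tested.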
